A study of Homo sapiens with 9 samples.

Results

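ZMAT3, TRIAP1, PERP, FBXW7, FBXO22, IER5, SUSD6, ABHD4 and RAP2B are direct target genes of the transcription factor p53. They were grouped apart from its targets listed under cell cycle arrest, DNA repair, apoptosis and metabolism. The grouping does not exclude a part in these programmes, and p53 can use PERP in cell death. The 9 genes were taken by name from a table of 78986 genes. Their mRNA was measured by RNA-seq in stable HEK293T lines labelled as overexpressing WT p53, the G245S mutant or the R273H mutant. There were 3 biological replicates per line, and the WT line was the control. The paper describes HEK293T as a line in which the endogenous p53 is functionally suppressed. HEK293T is a human embryonic kidney line, which the labels also call HEK 293 and describe as epithelial. Every line carried a lentiviral p53 construct and was grown in puromycin, and no other treatment differed between them. The promoter of the construct and whether each line is a single clone are not given in the sources used here. HEK293T cells also express the SV40 large T antigen, which binds p53, a property of the parent line that all groups share.

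p53 binds DNA as a tetramer at a response element of paired decamers, the half-sites, and raises transcription of the genes beside it. Glycine 245 and arginine 273 lie in the DNA-binding domain, and substitutions there weaken binding to these elements. A gene that depends on p53 binding would therefore be read as lower in a mutant line than in the WT line, to the extent that the WT protein drives it in these cells. The members act after transcription in quite different places. ZMAT3 is an RNA-binding protein, FBXW7 and FBXO22 are substrate receptors of SCF ubiquitin ligases, TRIAP1 carries lipids in mitochondria, PERP and SUSD6 sit in membranes, ABHD4 is a lipid hydrolase, IER5 works with the heat shock factor HSF1, and RAP2B is a small GTPase.

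The DNA near the gene starts shows how far the members differ in their match to the p53 element. Windows of 4000 bases, 2000 on each side of the start of the main transcript in GRCh38, were compared with 2 adjoining copies of the p53 half-site consensus, which reads alike on both strands. The closest matches in members are printed here with those of DDB2 and MDM2, a repair gene and the p53 ubiquitin ligase, which fell in both mutant lines. Each is written 5′ to 3′ on the gene's strand, the 20 bases compared are in capitals and 5 bases follow on either side.
ZMAT3, chr3:179070188-179070207, minus strand, intron 1: tcataAAACAAGTCCAGACATGCCTaggca
RAP2B, chr3:153160790-153160809, plus strand, upstream: agtcgGAACAAGTCGGGGCATCTCCcttgc
RAP2B, chr3:153160884-153160903, plus strand, upstream: ctctgAAGCAAGCTTGGACACTCCCctacc
DDB2, chr11:47214969-47214988, plus strand, exon 1: gctccAAGCTGGTTTGAACAAGCCCtgggc
MDM2, chr12:68808923-68808942, plus strand, intron 1: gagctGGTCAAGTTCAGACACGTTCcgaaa

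The ZMAT3 element, centred 1612 bases after the gene start, matched the consensus at 20 of 20 bases, which 0.04% of the windows of 20007 protein-coding genes did. RAP2B had 2 stretches that matched at 18 of 20 bases, centred at −1427 and −1333 bases from its start, and 9.25% of all windows held a match that good. DDB2 matched at 19 of 20 bases, as did or exceeded 0.7% of windows, and MDM2 at 18. The best stretch matched at 17 bases for PERP, ABHD4, SUSD6 and TRIAP1, a level that 57.2% of windows reached, and at 16 bases for FBXO22, FBXW7 and IER5, a level that 99.2% reached. Of other targets that fell, PHLDA3 matched at no more than 16 bases and EDA2R at 19. At 18 bases or better stood 2 of the 9 members and 23 of 56 other p53 targets, or 41.1%. A match describes the letters only and shows neither binding nor its absence, and elements farther away or with a spacer were not searched. In the shorter RefSeq promoter windows (GRCh38.p14, 250 bases before to 50 after the start), which were at hand for 8 members, ABHD4 and RAP2B each held an intact half-site, as did 6.5% of 27305 promoters. The ABHD4 promoter window also held a stretch that matched at 17 of 20 bases, a level that 5.1% of promoters reached. The other members matched there at 16 bases or fewer.

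None of the 9 genes passed the threshold in any comparison, although all 9 were abundant enough to be tested in each. Levels are given as CPM, counts scaled to the size and composition of each library. Differences are log2 fold changes of mutant over WT with 95% confidence intervals, tested with edgeR's quasi-likelihood test and Benjamini-Hochberg adjustment over all genes at a threshold of 0.05. Library totals were between 7325514 and 9667306 counts in the 8 libraries fitted. WT replicate 3 held 1486315 counts and was left out of the fits on depth, and its values are given apart. The paper also excluded a WT replicate, naming both low reads and poor sample quality, without saying which replicate. Whether poor quality affected the values of WT replicate 3 was not tested. Called lower in G245S were 0 of the 9 members against 0.107% of 15893 genes tested. The share was 0 of 9 against 0.112% of 16022 in R273H and 0 of 9 against 0.177% of 16398 for both mutants together. Called higher were also 0 of 9 in each, beside 0.0189%, 0.025% and 0.0244% of genes. Without adjustment, 2 members had p under 0.05 in each of these comparisons, RAP2B and FBXO22, both lower, where 3.3%, 3.33% and 3.89% of all genes were lower at that level. Higher at that level were 0 members, beside 3.35%, 2.78% and 3.01% of all genes. In the direct comparison of R273H with G245S, 0 of the 9 members and 0.0% of 15614 genes were called, and 0 members had an unadjusted p under 0.05, beside 2.46% of genes lower and 2.29% higher. By sign 5 of the 9 were lower in R273H, as were 51.7% of all genes, and their median was −0.06.

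By sign alone the log2 fold change was below 0 for 8 of 9 members in G245S, 9 of 9 in R273H and 8 of 9 for both together, where 49.2%, 49.3% and 50.7% of all genes were. The signs are not independent, since all comparisons with WT rest on the same WT libraries. The median log2 fold change of the members was −0.16 in G245S, −0.15 in R273H and −0.17 for both. The intervals bound how far each gene could have moved. In every comparison the interval of each of the 9 members excluded a log2 fold change of −1, a halving. A log2 fold change of −0.5 lay outside the interval of 7 members in G245S, 5 in R273H and 6 for both mutants together. The RNA came from whole cultures, so fewer cells expressing a gene and less RNA per cell cannot be told apart.

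**Figure D1:**
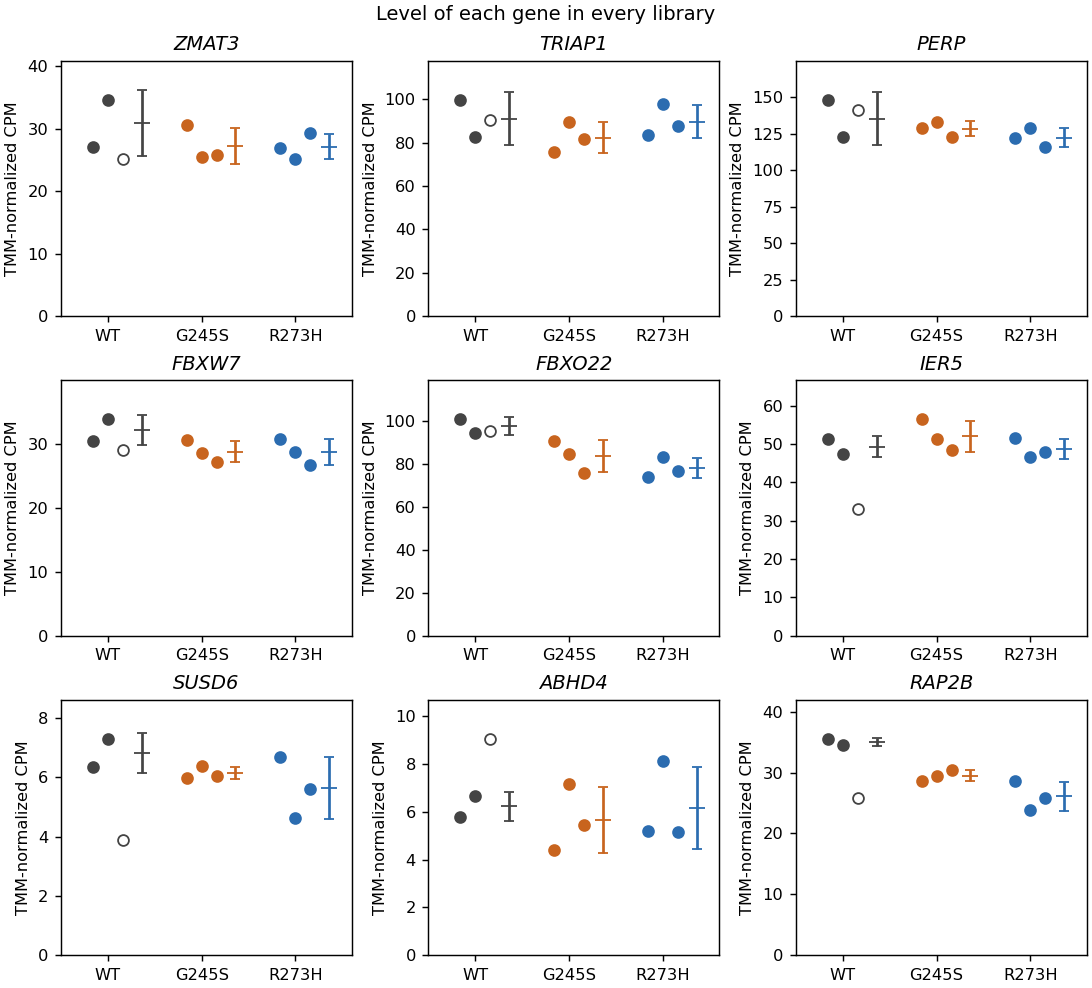
Normalized level (CPM, linear axis from 0) of each of the 9 genes in every library, by p53 line. Filled points are the libraries fitted, the open circle is WT replicate 3, and bars are the mean and SD of the fitted libraries. For FBXO22 and RAP2B all 6 mutant libraries sit below both fitted WT libraries, and for the other 7 genes the lines overlap.

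RAP2B, a small GTPase of the Ras family that acts on the actin cytoskeleton and cell adhesion, had the lowest values relative to WT. It was at 35.6 and 34.6 CPM in WT replicates 1 and 2, at 28.7, 29.5 and 30.4 CPM in the G245S replicates, and at 28.7, 23.9 and 25.8 CPM in the R273H replicates. All 6 mutant libraries lay below both fitted WT libraries, but the shallow WT replicate 3 was at 25.9 CPM, inside the mutant range of 23.9 to 30.4. Its log2 fold change was −0.26 (−0.47 to −0.05) in G245S, adjusted p = 0.664 in edgeR's quasi-likelihood test. In R273H it was −0.42 (−0.64 to −0.19), with an unadjusted p of 0.00139 and an adjusted p of 0.336 in the same edgeR test. For both mutants together it was −0.34 (−0.53 to −0.16), a level 21.2% below WT, with unadjusted p = 0.00131 and adjusted p = 0.232 in edgeR. That p ranked 93rd of 16398 genes. With all 3 WT libraries in the fit the values were −0.22 (unadjusted p = 0.0598 in edgeR), −0.38 and −0.30, and the adjusted p for both mutants was 0.406 in edgeR. R273H differed from G245S by −0.16 (−0.36 to 0.05). RAP2B lies at chr3:153162226-153170627 (GRCh38, plus strand) and has 1 exon in its main transcript.

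FBXO22, an F-box protein that brings KDM4 demethylases, BACH1 and methylated p53 itself to ubiquitination, stood next. Its level was 101 and 94.3 CPM in the fitted WT libraries. It was 90.4, 84.6 and 75.5 CPM in G245S and 73.9, 83.3 and 76.7 CPM in R273H. WT replicate 3, at 95.1 CPM, also lay above the highest mutant library, so for this gene no mutant library overlapped any of the 3 WT libraries. Of the 9 members only FBXO22 was separated in that way, and 1.71% of all genes were. Against the 2 fitted WT libraries alone, 2 of 9 members were below throughout, beside 4.29% of all genes. FBXO22 had a log2 fold change of −0.23 (−0.44 to −0.03) in G245S, −0.32 (−0.51 to −0.13) in R273H and −0.28 (−0.45 to −0.11) for both, 17.7% below WT. The adjusted p in edgeR's quasi-likelihood test was 0.688, 0.411 and 0.353 in turn, and with all 3 WT libraries the value for both was −0.30 with an adjusted p of 0.267. The gene overlaps NRG4 on the other strand, and the counting was strand-specific. FBXO22 lies at chr15:75903876-75942511 (GRCh38, plus strand) and has 7 exons in its main transcript.

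FBXW7, the substrate receptor that marks cyclin E, MYC, JUN and NOTCH1 for degradation, was at 30.5 and 33.8 CPM in WT. Its G245S libraries held 30.5, 28.6 and 27.2 CPM and its R273H libraries 30.8, 28.8 and 26.8 CPM. WT replicate 1 lay among the mutant libraries, and WT replicate 3, at 29.1 CPM, did too. For both mutants the log2 fold change was −0.17 (−0.36 to 0.03), adjusted p = 0.808 in edgeR, with −0.17 in G245S and −0.15 in R273H. FBXW7 lies at chr4:152320544-152536092 (GRCh38, minus strand) and has 14 exons in its main transcript. The gene overlaps MIR3140 on the same strand, and what that did to its counts was not tested.

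ZMAT3, a zinc finger protein that binds AU-rich RNA and regulates splicing, has the exact match to the p53 element, and its levels overlapped between lines. It was at 27.2 and 34.6 CPM in WT, a spread of 5.27 CPM (SD, n = 2) around 30.9. The G245S libraries were at 30.5, 25.5 and 25.7 CPM and the R273H libraries at 27.0, 25.2 and 29.3 CPM. WT replicate 2 was above every other library, while WT replicate 1 and, at 25.2 CPM, WT replicate 3 were within the mutant range. Relative to WT, ZMAT3 had a log2 fold change of −0.18 in G245S, −0.17 in R273H and −0.18 (−0.41 to 0.04) for both, adjusted p = 0.822 in edgeR. Without WT replicate 2 the value for both mutants was 0.0048. ZMAT3 lies at chr3:178960121-179072215 (GRCh38, minus strand) and has 6 exons in its main transcript.

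TRIAP1, a small mitochondrial protein that pairs with PRELID proteins to carry phosphatidic acid for cardiolipin synthesis, was at 99.6 and 82.6 CPM in WT. Its levels were 75.6, 89.7 and 81.8 CPM in G245S and 83.6, 97.9 and 87.6 CPM in R273H, with 90.6 CPM in WT replicate 3. The 3 lines overlapped. Relative to WT the log2 fold change of TRIAP1 was −0.16 (−0.39 to 0.07) in G245S and −0.02 (−0.24 to 0.20) in R273H. Of the members TRIAP1 had the highest value in R273H over G245S, 0.14 (−0.05 to 0.33), adjusted p = 0.994 in edgeR. TRIAP1 lies at chr12:120443964-120446384 (GRCh38, minus strand) and has 2 exons in its main transcript.

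PERP, a tetraspan membrane protein of desmosomes that p53 can use in cell death, was at 148 and 122 CPM in WT. It was at 129, 133 and 123 CPM in G245S, at 122, 129 and 116 CPM in R273H and at 141 CPM in WT replicate 3. WT replicate 1 was the highest library and WT replicate 2 among the lowest, so the spread of WT (SD 18.0 CPM, n = 2) covered the mutant means of 128 and 122. PERP had a log2 fold change of −0.12 (−0.30 to 0.06) for both mutants, adjusted p = 0.867 in edgeR, with −0.09 in G245S and −0.14 in R273H. PERP lies at chr6:138088505-138107419 (GRCh38, minus strand) and has 3 exons in its main transcript.

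SUSD6, a sushi domain membrane protein that takes part in MHC class I turnover, was among the least counted members, with a mean of 50.8 counts per library. It was at 6.36 and 7.31 CPM in WT, at 5.98, 6.38 and 6.06 CPM in G245S, at 6.69, 4.61 and 5.62 CPM in R273H and at 3.88 CPM in WT replicate 3. R273H replicate 2 and WT replicate 3 were the lowest and the rest overlapped. The log2 fold change for both mutants, −0.22 (−0.57 to 0.14), had an adjusted p of 0.876 in edgeR, with −0.16 in G245S and −0.26 in R273H. SUSD6 lies at chr14:69611596-69715144 (GRCh38, plus strand) and has 6 exons in its main transcript. The gene overlaps 1 other annotated gene on the same strand, and what that did to its counts was not tested.

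ABHD4, a hydrolase that makes precursors of N-acyl ethanolamines, had 48.9 counts per library on average, so that counting alone gave an SD of 14.3% of its level. It was at 5.78 and 6.67 CPM in WT, at 4.41, 7.16 and 5.44 CPM in G245S and at 5.19, 8.14 and 5.14 CPM in R273H. WT replicate 3 had the highest value, 9.06 CPM. Replicate 2 was the highest of both mutant lines, and the lines overlapped over their whole range. The log2 fold change for both mutants was −0.09 (−0.55 to 0.36), the widest interval of the 9 genes, with −0.16 in G245S and −0.02 in R273H. ABHD4 lies at chr14:22598290-22612963 (GRCh38, plus strand) and has 7 exons in its main transcript.

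IER5, an immediate early gene product that binds HSF1 and the phosphatase PP2A, was the member with a value above 0. It was at 51.3 and 47.4 CPM in WT, at 56.5, 51.3 and 48.5 CPM in G245S and at 51.6, 46.5 and 48.0 CPM in R273H. WT replicate 3 stood apart at 33.0 CPM, and the other 8 libraries overlapped. Its log2 fold change was 0.07 (−0.14 to 0.27) in G245S, −0.01 (−0.21 to 0.18) in R273H and 0.02 (−0.15 to 0.19) for both, so that a fall below −0.15 lay outside the interval. IER5 lies at chr1:181088700-181092900 (GRCh38, plus strand) and has 1 exon in its main transcript.

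**Figure D2:**
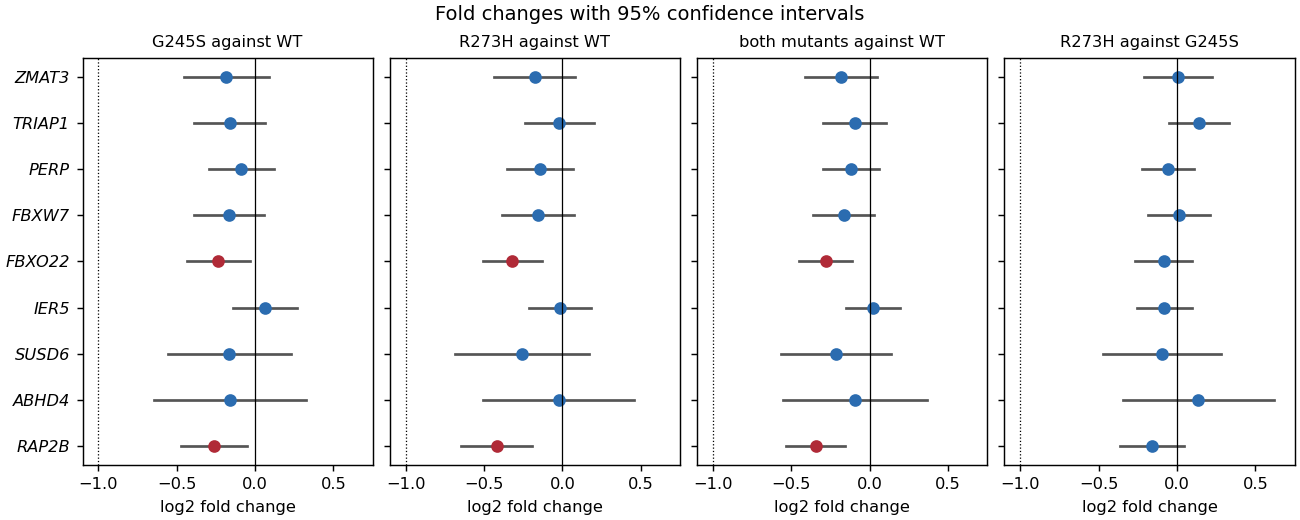
Log2 fold change (points) with 95% confidence interval (lines) of the 9 genes in the 4 comparisons, red where the unadjusted p is under 0.05. The dotted line at −1 marks a halving, and every interval lies above it. RAP2B and FBXO22 carry the red points, and no point passed the adjusted threshold.

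The coefficient of variation of a member within a mutant line (n = 3) was between 3.01% (RAP2B, G245S) and 27.9% (ABHD4, R273H), with a median of 7.63%. In WT it was between 1.99% (RAP2B) and 17.1% (ZMAT3) over the 2 fitted libraries, with a median of 9.83%. With WT replicate 3, which was less deeply sequenced, the WT range was 3.50% (FBXO22) to 30.2% (SUSD6) and the median 16.7%, an alternative chosen after seeing the data. That library moved RAP2B in WT from 1.99% to 16.7% and IER5 from 5.57% to 21.97%. Counting alone would give 14.0% for SUSD6, 14.3% for ABHD4, 6.38% for RAP2B and 3.08% for PERP at their mean counts in the fitted libraries. The RAP2B values of 1.99% in the fitted WT libraries and 3.01% in G245S were thus smaller than counting alone would give. ZMAT3, PERP, FBXO22 and RAP2B, 4 of the 9, had fractional counts in some libraries from reads shared with other places in the genome. For the members in order of p, the genes whose log2 CPM followed them most closely over the 8 fitted libraries are given as a description, out of 11643 genes averaging 5 CPM or more, with lines and libraries shared by all. They were MFSD3 (Pearson r of 0.976), ING2 (0.969) and CRTAP (0.956) for RAP2B. For FBXO22 they were GAS1 (0.976), AP1AR (0.966) and SNAI2 (0.962). For FBXW7 they were FBXO45 (0.98), HIPK1 (0.955) and FAXC (0.935).

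Other p53 targets were read from the same fits, from a list of 56 chosen with earlier results of these data known. Their counts are therefore no independent measure of what the libraries can detect. Called lower were 12 of 49 tested in G245S, 11 of 50 in R273H and 15 of 49 in both mutants together. Of all genes tested, 0.107%, 0.112% and 0.177% were called lower in turn. Called higher were 0 of the other targets, beside 0.0189%, 0.025% and 0.0244% of all genes. The counts depended on the libraries: without G245S replicate 3 the count in G245S was 7, and with WT replicates 1 and 3 in place of 1 and 2 the counts in G245S and R273H were 2 and 3. The middle of their log2 fold changes was −0.40, −0.40 and −0.36 in turn, as medians. PHLDA3, an inhibitor of AKT signalling, was at 28.3 and 30.9 CPM in WT, 6.72, 5.60 and 6.93 CPM in G245S and 7.84, 5.83 and 7.29 CPM in R273H. All mutant libraries lay below every WT library, which held for 1.71% of all genes. The log2 fold change of PHLDA3 was −2.21 (−2.50 to −1.92) in G245S, adjusted p = 3.1e-06 in edgeR, and −2.07 in R273H. MDM2 was at 79.7 and 84.5 CPM in WT and between 42.0 and 48.5 CPM in the 6 mutant libraries, a log2 fold change of −0.82 in G245S and −0.90 in R273H. DRAM1, an autophagy gene, had values of −1.80 and −1.83, DDB2 of −1.39 and −1.62, the mitochondrial reductase FDXR of −1.16 and −1.19, and TP53I3, an oxidoreductase, of −1.03 and −1.20, and all passed the threshold in both lines. CDKN1A, the cyclin-dependent kinase inhibitor p21, was at −0.79 in G245S and −0.41 in R273H and passed in neither (adjusted p = 0.206 and 0.685 in edgeR).

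RAP2B, the lowest of the 9 genes in each comparison with WT, was higher in log2 fold change than 27 of 49 other targets in G245S, 23 of 50 in R273H and 27 of 49 in both together. By class the median for both mutants was −0.49 over 13 apoptosis genes, −0.45 over 4 repair genes, −0.36 over 8 arrest genes, −0.33 over 4 feedback genes, −0.32 over 9 other targets and −0.23 over 11 metabolism and autophagy genes, where the 9 members had −0.17. Of the arrest genes 0 of 8 were called, so a count of 0 was not particular to the members, and no test of the difference between lists was made. Both lists were drawn up with earlier results of these data known.

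**Figure D3:**
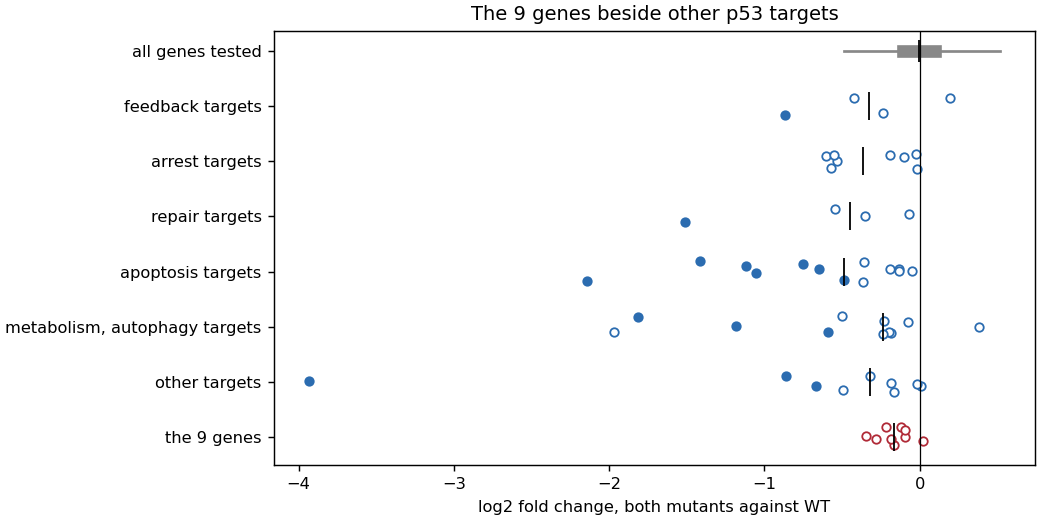
Log2 fold change for both mutants against WT of the 9 genes, of other p53 targets by class, and of all genes tested (box, middle 50%; line, middle 95%). Filled points passed the adjusted threshold. The 9 genes are all open, between −0.34 and 0.02, while PHLDA3, DRAM1 and DDB2 lie beyond −1.5. SPATA18, at −1.97, lies there too but is open (adjusted p = 0.0945 in edgeR). The point farthest to the left is EDA2R, whose G245S libraries were at 0, 0 and 0.124 CPM.

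Genes that work with the members were read from the same fits. A list of 57 complex partners, substrates, paralogs and downstream genes held 55 that were tested (ZMAT1 and PKP3 were too low), and 0 of these passed the threshold in any of the 4 comparisons. As medians their log2 fold changes came to −0.0088 in G245S, 0.0024 in R273H and −0.010 for both. In both mutants together 3 of the 55 were lower at an unadjusted p under 0.05, BACH1, JUN and PMP22, and 0 were higher, beside 3.89% and 3.01% of all genes.

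JUN, a transcription factor and substrate of FBXW7, was at 146 and 165 CPM in WT, at 149, 123 and 133 CPM in G245S and at 122, 114 and 111 CPM in R273H. WT replicate 3 was at 146 CPM. The log2 fold change in R273H was −0.42, adjusted p = 0.15 in edgeR, and DESeq2 called it at an adjusted p of 0.0492. Among the other FBXW7 substrates, cyclin E (CCNE1) had −0.13, MYC 0.02, NOTCH1 0.23 and MCL1 0.13 for both mutants, none past the threshold. FBXW7 acts on the proteins of these genes, which RNA-seq does not measure.

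BACH1, a heme-binding repressor and substrate of FBXO22, was at 16.2 and 15.5 CPM in WT and between 11.2 and 14.5 CPM in the mutant libraries. Its log2 fold change for both was −0.32 with an adjusted p of 0.58 in edgeR, and WT replicate 3, at 12.9 CPM, was within the mutant range. KDM4A, another substrate, was at −0.02. PMP22, of the same tetraspan family as PERP, had −0.25, adjusted p = 0.628 in edgeR, while the desmosome and PMP22 genes listed with PERP ran from −0.25 to 0.21.

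Around the remaining members the lowest p belonged to genes with adjusted p between 0.786 and 0.909 in edgeR for both mutants together. They were AGO2 for ZMAT3 (log2 fold change 0.09), PRELID2 for TRIAP1 (−0.20), IER2 for IER5 (0.14), WWP2 for SUSD6 (0.23), NAPEPLD for ABHD4 (0.26) and RAP2A for RAP2B (−0.13). The close paralogs of RAP2B had intervals that spanned 0, RAP2A at −0.13 (−0.31 to 0.06) and RAP2C at 0.06 (−0.14 to 0.26). The TRIAP1 partners PRELID1, PRELID3A and PRELID3B were at −0.04, −0.05 and −0.02.

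Between the mutants the partner list held 2 genes that passed with some methods only. HSPA1B, an inducible HSP70 gene driven by HSF1, was at 1322, 1199 and 1398 CPM in G245S and at 974, 990 and 940 CPM in R273H. It was at 1068 and 1028 CPM in the fitted WT libraries. The log2 fold change of R273H over G245S was −0.42, with an unadjusted p of 0.000241 and an adjusted p of 0.921 in edgeR, and DESeq2 called it (adjusted p = 0.0037). HSPA1A is a near-identical copy that stood at 4.82 to 7.43 CPM in the fitted libraries, so reads of the pair could be split and the value is uncertain. CD44, whose splicing ZMAT3 regulates, was at 3.57, 4.16 and 4.58 CPM in G245S and at 7.03, 8.82 and 5.02 CPM in R273H, a log2 fold change of 0.77 with adjusted p = 0.921 in edgeR. WT replicate 3 was far above all others for CD44, at 31.1 CPM.

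**Figure D4:**
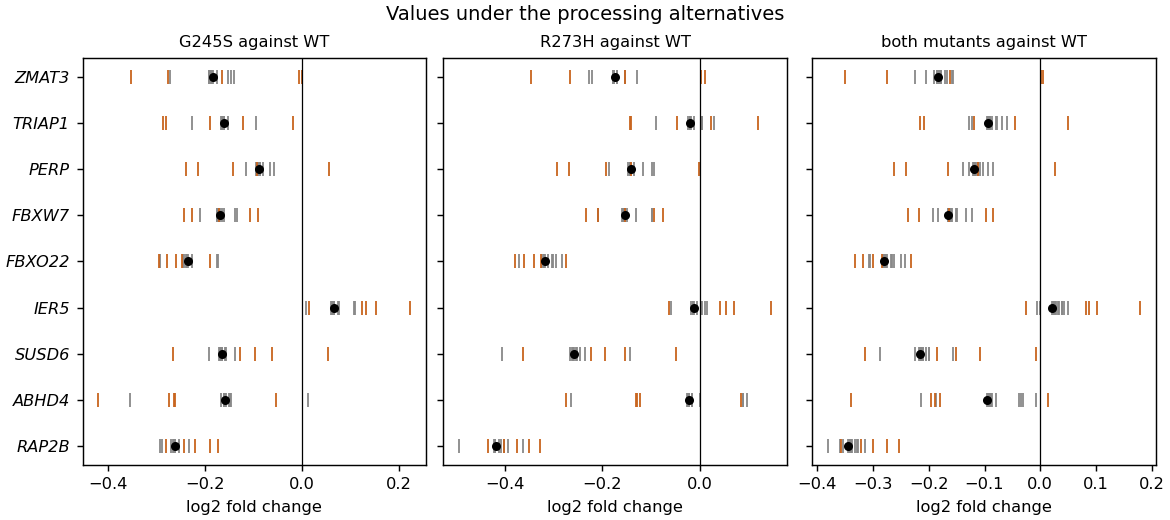
Log2 fold change of the 9 genes under every alternative setting (ticks, orange where the choice of WT libraries differed) beside the value reported (dots), by comparison. RAP2B and FBXO22 stayed below 0 in all settings of the comparisons with WT, as did FBXW7, while the other 6 genes reached both sides of 0.

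Markers of the line differed in level over the 8 fitted libraries. Of the epithelial markers, the keratins KRT18 and KRT8 were at 59.35 to 69.2 and 9.71 to 12.1 CPM. KRT19 (0.26 to 1.36 CPM), EPCAM (0.742 to 3.39) and the cadherin CDH1 (0.678 to 1.41) were low. The neurofilament genes NEFM, NEFL and INA, usual in HEK293 cells, were at 126 to 194, 43.9 to 52.4 and 7.68 to 11.7 CPM. The kidney progenitor genes LHX1, PAX2 and EYA1 were at 5.32 to 9.90, 2.20 to 4.90 and 1.68 to 3.35 CPM. Of 10 markers of other cell types, 7 were under 1 CPM in all fitted libraries, with CD3E and PECAM1 at 0. Their summed level was 26.9 to 40.8 CPM in WT, 19.4 to 36.8 in G245S and 33.1 to 66.9 in R273H, mostly COL1A1 and COL3A1, and its part in the member values was not tested.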

How the data were processed

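RNA-seq libraries from 9 cultures were analysed, 3 per line. The deposited values were estimated counts per gene on GRCh38, fractional for multi-mapping reads. Per the labels and the study's methods, the authors filtered reads with fastp 0.24.0, aligned with STAR 2.7.11, removed duplicates by molecular identifier and counted strand-specifically with featureCounts (Subread 2.1.1). The table's 9 per-sample CPM columns were not used. Counts were rounded. WT replicate 3 was left out on depth, the limit being 4096044 counts (a share of 0.5 of the median total, 8192089, over the other 8). Genes were filtered with filterByExpr, scaled with TMM and tested in edgeR 4.0.16 by quasi-likelihood (limma 3.58.1, R 4.3.3) within the groups compared, or over all 3 groups for both mutants together. The floor of 3 counts was 0.315 to 0.407 CPM in the fitted libraries. The confidence intervals of the log2 fold changes came from the quasi-likelihood fits. They cover the spread between replicate libraries as well as counting error. Alternatives were DESeq2 1.42.0, other scalings and filters, other WT libraries, 1 fit of all groups, dropped fractions, a replicate term and leaving out each replicate. The code was tested on simulated data.

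The 9 members and the lists of 56 p53 targets and 57 partner genes were chosen with earlier results of these data known. Named were all members, the 5 other targets with the largest mean fall among those past the threshold in both mutants, CDKN1A and MDM2, the partner of lowest unadjusted p per member, paralogs or complex partners a sentence on a member needed, and the 3 genes most correlated with each of the 3 members of lowest p. EDA2R, SPATA18, HSPA1A, HSPA1B, CD44 and the substrates CCNE1, MYC, NOTCH1, MCL1 and KDM4A were named after their values were seen. Gene starts came from GENCODE release 44. p53 matches were sought with Python 3.11.15 and numpy 2.4.6.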

Additional observations from a re-analysis of the deposited data

How the results depend on the processing

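None of the 9 genes passed the threshold under any of the 585 combinations of gene, comparison and alternative, and the lowest adjusted p was 0.101 (RAP2B in R273H, edgeR with no filter). RAP2B kept an unadjusted p under 0.05 in 16 of 16 alternatives in R273H, 19 of 19 for both mutants and 9 of 16 in G245S. FBXO22 kept it in 16 of 16, 18 of 19 and 12 of 16. The sign was the same in 542 values and turned in 43, none past the threshold. The replicates measure cultures of 1 line per genotype, so the p-values say nothing of other lines, and the 2 fitted WT libraries set the precision of each comparison with WT.

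With 1 replicate left out at a time, the log2 fold changes that turned in sign ran in G245S from −0.35 to 0.00017 for ZMAT3, −0.21 to 0.055 for PERP and −0.35 to 0.012 for ABHD4. In R273H they ran from −0.35 to 0.010 for ZMAT3, −0.14 to 0.12 for TRIAP1, −0.064 to 0.041 for IER5 and −0.26 to 0.095 for ABHD4. For both mutants they ran from −0.35 to 0.0048 for ZMAT3, −0.22 to 0.051 for TRIAP1, −0.24 to 0.026 for PERP, −0.026 to 0.083 for IER5 and −0.21 to 0.015 for ABHD4. Between the mutants they ran from −0.044 to 0.094 for ZMAT3, −0.039 to 0.069 for FBXW7, −0.24 to 0.015 for SUSD6 and −0.11 to 0.33 for ABHD4. For ZMAT3 in the comparisons with WT the turn came without WT replicate 2, and for PERP without WT replicate 1. With WT replicates 1 and 3 the sign also turned for SUSD6 in G245S (0.054), for ZMAT3 in R273H (0.0026) and in both mutants (0.00067), and for IER5 in R273H (0.069). The other turns in R273H were TRIAP1 at 0.022 and IER5 at 0.15 with WT replicates 2 and 3, IER5 at 0.053 with all 3 WT libraries, and, with library-size scaling, TRIAP1 at 0.0043, IER5 at 0.011 and ABHD4 at 0.00048. With no filter ZMAT3 was at −0.0084 and FBXW7 at −0.0031 between the mutants. The cause was not tested.

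Other p53 targets called in G245S, 12 as reported, were 2 with WT replicates 1 and 3, 7 with WT replicates 2 and 3, 19 with no filter, and 7 to 12 when 1 replicate was left out. Those called in R273H, 11 as reported, were 3, 7 and 19 under the same settings and 8 to 11 when 1 replicate was left out. Partner genes called in R273H were 1 (JUN) with DESeq2 and 1 with no filter, and between the mutants 1 (HSPA1B) with DESeq2, 2 (HSPA1B and CD44) with no filter and 1 (HSPA1B) with the replicate block. Over all genes, G245S had 17 lower and 3 higher calls as reported, 87 and 57 with no filter, and 3 and 0 with WT replicates 1 and 3. R273H had 18 and 4 as reported, 63 and 30 with no filter, and 4 and 0 with WT replicates 1 and 3. Both mutants had 29 and 4 as reported, 86 and 36 with no filter, and 14 and 0 with those replicates. Between the mutants 0 were called as reported (384 lower and 357 higher had an unadjusted p under 0.05 in edgeR, and DESeq2 called 1), and with no filter 43 were lower and 82 higher.

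Correlations of the deviations of same-numbered libraries ran from −0.128 to 0.256, and those of differently numbered libraries from −0.249 to 0.180. The highest was that of replicate 2 of G245S and R273H. The 2 fitted WT libraries deviate as mirror images of each other, so this check cannot settle whether the numbers pair the samples. A replicate block gave 53 lower and 23 higher calls in G245S, 22 and 25 in R273H, 28 and 10 for both mutants and 26 and 33 between the mutants, with 0 of the 9 members among them. With the block the log2 fold changes in R273H of TRIAP1, IER5 and ABHD4 were 0.0039, 0.0013 and 0.087. Leaving out 1 replicate can leave a single WT library, whose spread is then assumed to be that of the other groups.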
